A study of Mus musculus with 4 samples.

Results

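The activin, inhibin and follistatin system of the mouse pituitary was described through 10 genes out of 55357 in the deposited gene table. They encode the subunits Inha, Inhba and Inhbb, the antagonists Fst and Grem1, the receptors Acvr2a, Acvr2b, Acvr1b and Bmpr1b, and the co-receptor Tgfbr3l. The genes were chosen by name and followed across cell classes set by other marker genes, together with Fshb, the output of the loop. The study profiled whole pituitaries by droplet 3' single-cell RNA sequencing in 2 libraries of the high-fat diet group (HFD) and 2 of the normal diet group (ND). Per the labels, all were male and 4 weeks old at the start, the diet lasted 12 weeks, 3 pituitaries were pooled as one sample, and no strain or altered allele is named. The labels also give each library the cell line Lbt2 and the cell type gonadotroph, whereas the tissue, the protocol and the cells found here are those of the whole gland.

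Barcodes carry a number from 1 to 4 that no label ties to a library, so no cell could be assigned to a diet and no HFD against ND comparison was made. The matrix is 1 pooled sample. Values are given pooled and for each barcode set, without a test, and the 95% intervals (exact Poisson for levels, Clopper-Pearson for shares) cover counting error only. Levels are UMI counts (unique molecules) scaled to 1000000 UMIs of a class (CPM). The matrix held 346690898 UMIs, and sets 1 to 4 held from 81621358 to 92665029 UMIs in 9929 to 10212 barcodes. Of the barcode sequences, 156 occurred in more than 1 set. After filtering, 36207 cells remained, of which 931 were gonadotroph-like, 2032 stem or folliculostellate-like, 1229 endothelial-like and 434 fibroblast-like. There were 12 classes that had at least 20 cells in every set, and these were compared.

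Activins are dimers of the beta subunits encoded by Inhba and Inhbb and raise the transcription of Fshb, the beta subunit of follicle-stimulating hormone, in gonadotrophs. Inhibins pair a beta subunit with the alpha subunit encoded by Inha and oppose activin by occupying its type II receptors with the help of a co-receptor. Follistatin binds activin and holds it away from its receptors. In the pituitary, activin B made inside the gland and follistatin from local cells are known regulators of Fshb, and circulating inhibin comes from the gonads.

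Of the 10 genes, 8 had at least 20 UMIs in the class where they were highest, and 7 of these were highest in the same class in all 4 sets. With class sums thinned to the smallest one of each set, 3 were (Inhba, Tgfbr3l and Grem1). Among the 16318 genes that passed the same minimum, 38% kept one class in every set. Tgfbr3l, Grem1 and Acvr2b led in gonadotroph-like cells, where 4.09% of all tested genes led. Inhba and Inhbb led in stem or folliculostellate-like cells (4.55% of genes), Inha in corticotroph-like cells (4.3%) and Bmpr1b in fibroblast-like cells (4.05%). Acvr2a led in stem or folliculostellate-like cells in 3 of 4 sets. Acvr1b and Fst did not reach the minimum.

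**Figure D1:**
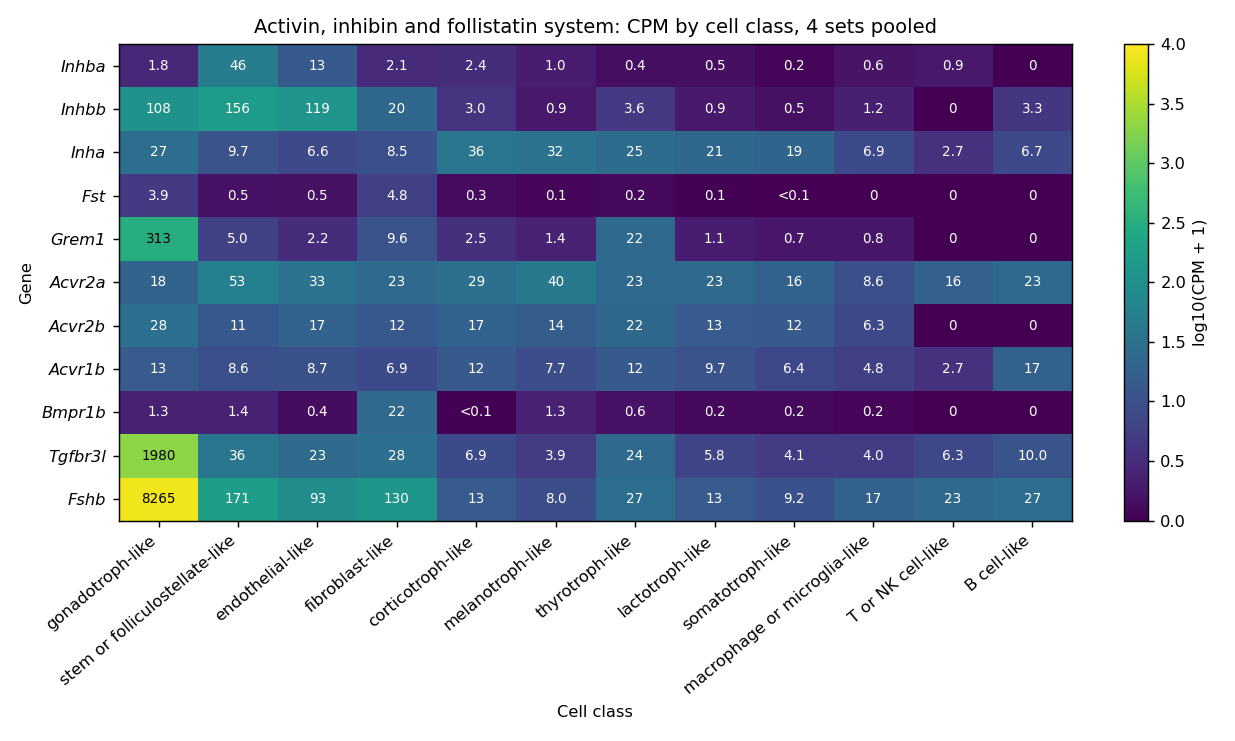
Level of the 10 genes and of Fshb in the 12 cell classes (columns), as CPM of the UMIs of a class with the 4 sets pooled; colour is log10(CPM + 1). Inhbb is above 100 CPM in the first 3 columns, whereas Tgfbr3l and Grem1 exceed 100 CPM in gonadotroph-like cells alone among these 12 classes.

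Inhba, the subunit of activin A, was highest in stem or folliculostellate-like cells, the marker-defined class that holds progenitors and the star-shaped support cells of the gland. There it stood at 45.6, 51.8, 51.7 and 38.4 CPM in sets 1 to 4, and at 46.3 CPM pooled (43.3 to 49.3). Endothelial-like cells came next with 15.5, 23.2, 5.50 and 5.34 CPM. The class order was thus the same in every set, with no overlap between the values of these classes. In gonadotroph-like cells 20 UMIs gave 1.75 CPM (1.07 to 2.71). Endothelial-like Inhba was 4.72 CPM (1.53 to 11.02) in the 359 cells of that class without a UMI of a stem or gonadotroph marker, against 13.99 CPM (11.4 to 17.03) in the other 870. The lower level rests on 5 UMIs. Cells with such a UMI held 16.54 CPM against 7.30 CPM without in set 1, and 26.02 against 0 CPM in set 2. The values were 5.39 against 6.02 CPM in set 3 and 5.54 against 4.12 CPM in set 4. The pooled difference thus came mainly from sets 1 and 2 and was reversed in set 3. Median depth also differed, at 5392.5 UMIs in the cells with and 2018 in those without. The part of such transcripts in the 12.8 CPM of the whole class was not tested.

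Inhbb, the subunit of activin B, had 3 source classes. In stem or folliculostellate-like cells it stood at 148, 198, 168 and 118 CPM in sets 1 to 4 (pooled 156, interval 150.4 to 161). In endothelial-like cells it stood at 115, 144, 102 and 117 CPM (pooled 119, 112 to 127), and in gonadotroph-like cells at 94.7, 105, 115 and 114 CPM (pooled 108, 102 to 114). Stem or folliculostellate-like cells were highest in each set, with endothelial-like cells close in set 4. Over all cells of each class, the endothelial-like range over the sets overlapped both of the others. The stem or folliculostellate-like and gonadotroph-like ranges did not overlap. The endothelial-like and gonadotroph-like values changed order between sets, so these neighbours did not differ beyond the spread of the sets. Fibroblast-like cells followed at 20.3 CPM (14.4 to 27.9), and thyrotroph-like cells at 3.56 CPM.

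The 3 source classes kept Inhbb when cells with a UMI of selected markers of the other source classes were set aside. Without such a UMI, Inhbb reached 158 CPM in 1815 stem or folliculostellate-like cells, 104 CPM (85.4 to 125) in 359 endothelial-like cells and 121 CPM in 484 gonadotroph-like cells. Fshb was not among the markers screened. A Fshb UMI remained in 8.04% of these stem or folliculostellate-like cells and in 3.90% of these endothelial-like cells. The marker-free endothelial-like cells were also shallower, with a median of 2018 UMIs against 5392.5 in the other cells of that class. The part of transcripts from other cells in these levels was not tested. In these marker-free cells the gonadotroph-like range over the sets (77.1 to 128 CPM) overlapped the stem or folliculostellate-like range (126 to 201 CPM). Gonadotroph-like cells were the higher of these in set 4, at 128 against 126 CPM. Among stem or folliculostellate-like cells, the larger cluster (1343 cells, median 9029 UMIs) held 184 CPM of Inhbb and 54.7 CPM of Inhba. The smaller cluster (689 cells, median 1639 UMIs) held 75.7 and 21.9 CPM, and it also held 592 CPM of Fshb against 24.8 CPM in the larger one. The endothelial-like cluster had Rgs5, a mural cell marker, among its 10 leading genes, so its Inhbb cannot be assigned to endothelial cells alone. After thinning each cell to 2000 UMIs, an Inhbb UMI was found in 27.2% of stem or folliculostellate-like cells (25.04 to 29.4), 18.7% of endothelial-like cells and 15.8% of gonadotroph-like cells. In the T or NK cell-like class, which should lack it, the count was 0 of 257, which allows a share of up to 1.43%. Unthinned shares were 54.8%, 36.0% and 49.4% at median depths of 7302, 3703 and 12754 UMIs.

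Inha, the inhibin alpha subunit, was a low transcript of all hormone-producing classes. Corticotroph-like cells held 34.03, 32.3, 40.01 and 42.9 CPM in sets 1 to 4 (pooled 36.4, 33.8 to 39.2) and melanotroph-like cells 30.8, 25.99, 37.0 and 35.3 CPM (pooled 32.2, 28.1 to 36.7). These 2 neighbours had overlapping intervals, and corticotroph-like cells were higher in each set. Gonadotroph-like cells, the class that inhibin acts on, stood at 25.1, 25.5, 28.2 and 28.6 CPM, close to thyrotroph-like cells with 24.95 CPM pooled (20.8 to 29.7). Lactotroph-like cells held 21.0 CPM and somatotroph-like cells 18.6 CPM, and stem or folliculostellate-like cells 9.70 CPM. All 6 hormone classes were thus above the stem or folliculostellate-like level. With the 7 hormone genes left out of the class totals, melanotroph-like cells led for Inha and the leading class was no longer the same in every set.

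**Figure D2:**
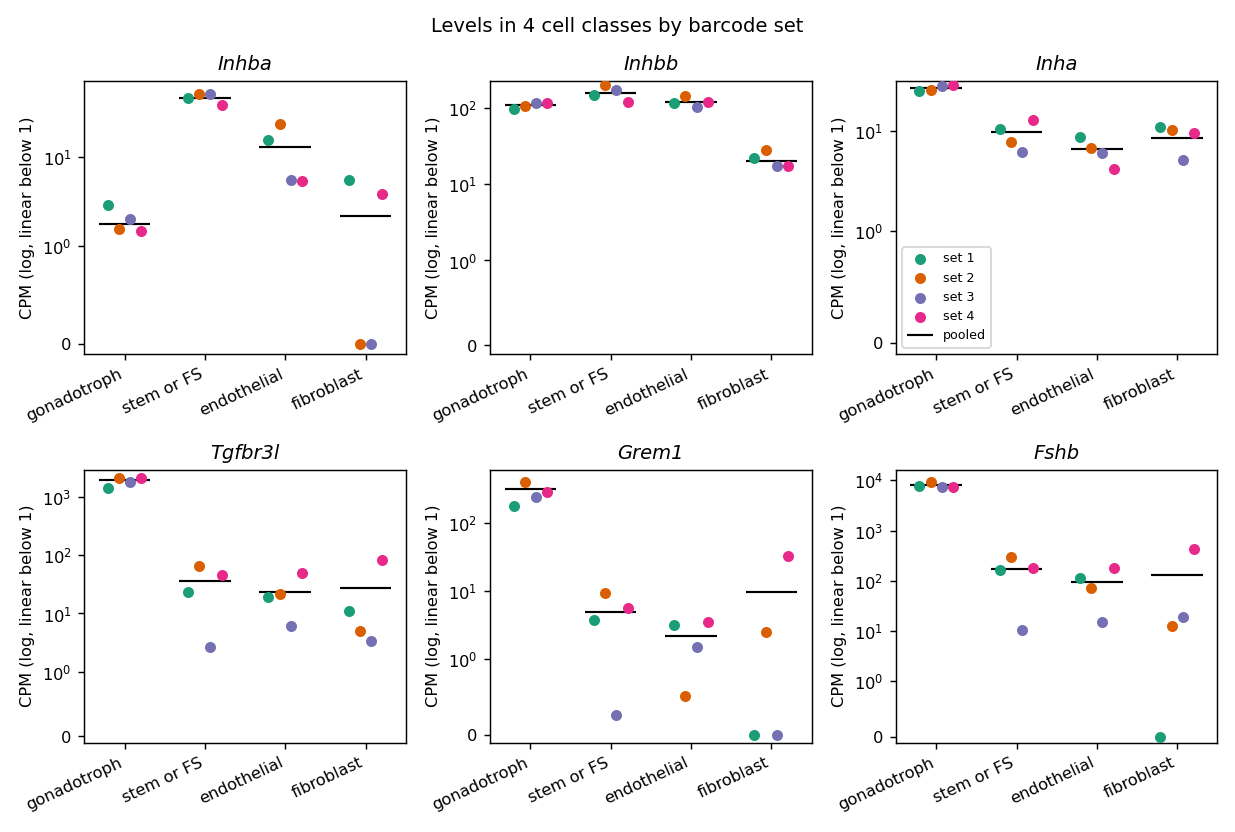
Levels of 5 of the genes and Fshb (CPM, log axis that is linear below 1) in gonadotroph-like, stem or folliculostellate-like (stem or FS), endothelial-like and fibroblast-like cells; points are the 4 barcode sets and lines the pooled value. Inhbb points of the first 3 classes lie between 94.7 and 198 CPM, with those of the gonadotroph-like class all below those of the stem or FS class, while the gonadotroph-like points of Tgfbr3l, Grem1 and Fshb lie above every point of the other 3 classes.

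Fst, which encodes follistatin, was rarely detected. It had 86 UMIs in the named classes, of which 44 lay in gonadotroph-like cells, in 18 cells with 14 UMIs in a single cell. The gonadotroph-like level was 12.9, 3.80, 0.989 and 1.47 CPM in sets 1 to 4 (pooled 3.86, 2.80 to 5.18). Set 1 was far above the others and held the fewest gonadotroph-like cells (133). Fibroblast-like cells stood at 4.81 CPM from 9 UMIs (2.20 to 9.12), which did not differ from the gonadotroph-like value beyond counting error. At this depth no class can be named as the source of follistatin transcripts. Stem or folliculostellate-like cells held 11 UMIs, or 0.544 CPM (0.272 to 0.974).

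Grem1 encodes gremlin, a secreted antagonist of bone morphogenetic proteins (BMPs). It was high in gonadotroph-like cells at 179, 393, 239 and 282 CPM in sets 1 to 4 (pooled 313, 303 to 324). Thyrotroph-like cells, the other class that makes Cga, came next with 25.8, 23.4, 28.6 and 11.3 CPM (pooled 22.2), and all 4 gonadotroph-like values lay above all 4 of theirs. Set 2 had the highest gonadotroph-like level and set 1 the lowest. Thinned to 2000 UMIs, 29.7% of gonadotroph-like cells (26.7 to 33.0) and 4.01% of thyrotroph-like cells (2.61 to 5.87) held a Grem1 UMI, against 0 of 257 cells in the T or NK cell-like class.

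Acvr2a and Acvr2b encode the type II receptors that bind activin and, with a co-receptor, inhibin. Acvr2a was widespread, and among the hormone classes it was lowest in somatotroph-like (16.3 CPM) and gonadotroph-like cells. Gonadotroph-like cells had 25.8, 14.6, 23.7 and 16.5 CPM of Acvr2a in sets 1 to 4 (pooled 18.1, 15.7 to 20.7), against 53.96, 51.2, 61.8 and 47.1 CPM in stem or folliculostellate-like cells (pooled 52.9, 49.8 to 56.2). These classes did not overlap. Melanotroph-like cells were second at 39.7 CPM but varied from 22.1 to 53.2 CPM over the sets. In set 4 B cell-like cells led on few UMIs, since that class held 7 Acvr2a UMIs in all.

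Acvr2b went the other way between these classes. It stood at 29.4, 28.9, 23.3 and 27.9 CPM in gonadotroph-like cells (pooled 27.7, 24.7 to 30.9), against a range of 9.38 to 13.4 CPM over the sets for the stem or folliculostellate-like class (pooled 11.5). Thyrotroph-like cells were the nearest neighbour at 19.1, 22.3, 19.7 and 25.1 CPM (pooled 21.8, 17.9 to 26.3), with overlapping intervals and 1.27-fold below the gonadotroph-like level. With every class thinned to the smallest class sum of each set, Acvr2b led in thyrotroph-like cells and the lead did not hold in every set.

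Acvr1b, the type I receptor of activin, was low in all 12 classes. Gonadotroph-like cells held 14.4, 12.4, 13.4 and 13.2 CPM in sets 1 to 4 (pooled 13.0, 11.0 to 15.2), thyrotroph-like cells 12.5 CPM and corticotroph-like cells 12.3 CPM. Somatotroph-like clusters were lower, at 6.29 to 6.57 CPM. The lowest of the 12 classes was T or NK cell-like with 2.68 CPM. The highest was B cell-like with 16.6 CPM, which rests on 5 UMIs. Its close relative Acvr1c, another type I receptor of the activin branch, led in lactotroph-like cells at 37.7 CPM, against 15.6 CPM in thyrotroph-like cells. Among gonadotroph-like cells thinned to 2000 UMIs, 9.95% (8.00 to 12.2) held a UMI of Acvr2a or Acvr2b and 3.24% (2.14 to 4.68) one of Acvr1b or Acvr1c. Both kinds were found in 3 of 834 cells, so receptor pairs within a cell were not resolvable at this depth.

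Bmpr1b, a type I receptor of BMPs, was highest in fibroblast-like cells. Its 41 UMIs there gave 10.9, 25.4, 25.7 and 22.8 CPM in sets 1 to 4 (pooled 21.9, 15.7 to 29.7). Every other class was at or below 1.39 CPM, the stem or folliculostellate-like value, and the sets did not overlap. The level was 9.91 CPM when doublets were kept and 13.9 CPM with classes set by marker score.

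Tgfbr3l encodes the pituitary inhibin B co-receptor, a relative of betaglycan. It was the gene of the 10 with the sharpest class pattern. Gonadotroph-like cells held 1445, 2111, 1799.9 and 2135 CPM in sets 1 to 4 (pooled 1980.4, 1955 to 2006). Stem or folliculostellate-like cells were next at 36.1 CPM pooled, 54.8-fold lower, and ranged from 2.66 to 66.4 CPM over the sets. In stem or folliculostellate-like cells without a UMI of gonadotroph or endothelial markers the level was 4.27 CPM (3.34 to 5.39), and in those with one it was 183 CPM. Fshb moved alongside, at 10.5 CPM in the cells without and 914 CPM in the cells with such a UMI. Thinned to 2000 UMIs, 71.9% of gonadotroph-like cells (68.8 to 75.0) held a Tgfbr3l UMI, against 1.95% of the T or NK cell-like class (0.635 to 4.48). Unthinned shares were 79.8% at a median of 12754 UMIs and 1.26% at a median of 2108 UMIs. GENCODE vM21 lists Gm49320 with exons shared with Tgfbr3l on the same strand, so reads there may have been split or dropped by the authors' counting.

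The sequences before the starts of Tgfbr3l, Grem1, Inhbb and Fshb are shown because the first 3 followed Fshb among gonadotroph-like cells, as described further on. They are the 250 bases before each start from RefSeq (GRCm38.p6), which held a window for 9 of the 10 genes. Capitals mark the letters CAAGGNCA, the type of site bound by the gonadotroph factor NR5A1, or CAGAC, the Smad box, on either strand. These motifs were chosen after the sequences had been read, and the files' own genome build is not given in the sources used here.
Tgfbr3l, chr8:4247964-4248213, plus strand: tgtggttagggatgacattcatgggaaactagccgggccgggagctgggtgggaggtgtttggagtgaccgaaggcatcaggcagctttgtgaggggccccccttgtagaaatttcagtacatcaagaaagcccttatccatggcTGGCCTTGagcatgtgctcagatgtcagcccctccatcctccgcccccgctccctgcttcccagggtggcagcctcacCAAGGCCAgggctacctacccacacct
Grem1, chr2:113758649-113758898, minus strand: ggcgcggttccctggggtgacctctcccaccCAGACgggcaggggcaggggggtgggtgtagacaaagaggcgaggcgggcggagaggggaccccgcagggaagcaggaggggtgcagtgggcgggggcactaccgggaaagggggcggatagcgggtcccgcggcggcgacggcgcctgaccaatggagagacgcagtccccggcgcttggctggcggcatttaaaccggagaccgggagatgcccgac
Inhbb, chr1:119422249-119422498, minus strand: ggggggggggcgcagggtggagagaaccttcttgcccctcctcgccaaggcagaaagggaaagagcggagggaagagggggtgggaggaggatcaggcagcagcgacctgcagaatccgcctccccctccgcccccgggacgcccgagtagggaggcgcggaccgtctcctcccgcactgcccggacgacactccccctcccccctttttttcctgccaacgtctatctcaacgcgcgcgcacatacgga
Fshb, chr2:107059652-107059901, minus strand: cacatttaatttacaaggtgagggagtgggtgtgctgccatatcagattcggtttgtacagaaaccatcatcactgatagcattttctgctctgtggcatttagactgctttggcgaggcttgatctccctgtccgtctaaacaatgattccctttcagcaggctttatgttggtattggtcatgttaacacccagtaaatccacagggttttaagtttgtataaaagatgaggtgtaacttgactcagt

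The Tgfbr3l window held CAAGGNCA at 2 places, once on each strand, ending 98 and 20 bases before the start. Of 32851 RefSeq windows of the same length, 5.53% held this motif at least once and 0.286% at least 2 times. None of the windows of the other 8 genes or of Fshb held these exact letters. Near matches, such as caaggtga in the Fshb window, were not counted, so NR5A1 sites of other spelling were not searched. CAGAC was found once in Grem1, Inha, Acvr2a and Acvr2b and in 2 of 3 Bmpr1b windows, and in 42.2% of all windows. The palindrome GTCTAGAC was in none of these windows and in 0.167% of all windows. Bases more than 250 before a start were not searched, so a motif further upstream, also of Fshb, would be missed. The motifs searched did not overlap in these windows.

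The receiving cells of the loop were marked by Fshb, which took no part in clustering or naming. Gonadotroph-like cells held 7652, 9101, 7468 and 7556 CPM of Fshb in sets 1 to 4 (pooled 8265, 8212 to 8318). Stem or folliculostellate-like cells followed at 171 CPM. After thinning to 2000 UMIs, a Fshb UMI was found in 77.6% of gonadotroph-like cells and in 4.67% of the T or NK cell-like class (2.44 to 8.01), whose level of 23.2 CPM is taken as background. Thyrotroph-like cells, at 27.3 CPM (23.0 to 32.3), and B cell-like cells, at 26.6 CPM, lay near that level. The T or NK cell-like class is shallower, however, with a median of 2108 UMIs against 6191 in thyrotroph-like cells. Corticotroph-like cells, with a median of 7249.5 UMIs, held 13.0 CPM of Fshb (11.5 to 14.7) and melanotroph-like cells 7.97 CPM (6.01 to 10.4). Thyrotroph-like Fshb was thus above these deeper hormone classes, and whether it is background was not tested.

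Beside the receiving cells, sending cells can be ordered by the subunits they hold. Both Inhba and Inhbb transcripts were found in stem or folliculostellate-like cells and, at lower levels, in endothelial-like cells. Gonadotroph-like cells held Inhbb and Inha but Inhba at 1.75 CPM only. All members of the receiving side, Acvr2a, Acvr2b, Acvr1b and Tgfbr3l, had UMIs in gonadotroph-like cells in every set. Having UMIs of these genes was not particular to that class. Corticotroph-like cells held 28.6 CPM of Acvr2a, 16.8 CPM of Acvr2b, 12.3 CPM of Acvr1b and 6.94 CPM of Tgfbr3l. Foxl2, a transcription factor that acts with Smad proteins at Fshb, stood at 169 CPM in gonadotroph-like cells, 144 CPM in thyrotroph-like cells and 68.3 CPM in endothelial-like cells. In endothelial-like cells without a UMI of stem or gonadotroph markers (median 2018 UMIs) Foxl2 was 78.4 CPM (62.4 to 97.2). In those with one (median 5392.5 UMIs) it was 66.8 CPM (60.9 to 73.1). Thyrotroph markers were not screened, and the part of transcripts from other cells in the endothelial-like Foxl2 level was not tested.

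Gonadotroph-like cells differed among themselves in the same genes. Cells with at least 5000 UMIs were thinned to 5000 and split within each set into 3 equal parts by their Fshb share, which gave 255 Fshb-high cells in the top part and 255 Fshb-low cells in the bottom part. The split took in 767 cells, of which 619 had at least 1% Cga among their UMIs. The ratios below thus include the low-Cga cells described further on. Fshb itself, which made the split, averaged 13246 CPM in Fshb-high cells and 932 CPM in Fshb-low cells. Of the 10 genes, 7 had at least 20 UMIs over both parts, and 3 of these were higher in Fshb-high cells in all 4 sets. Among all 10683 genes with that many UMIs, 8.61% did the same, and 3.09% did so with a pooled ratio of at least 2.

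Tgfbr3l was 2211, 2635, 2388 and 2917 CPM in Fshb-high cells of sets 1 to 4, against 22.9, 585, 145 and 455 CPM in Fshb-low cells (pooled 2599 and 387 CPM, ratio 6.72). Grem1 was 291, 515, 384 and 378 CPM in Fshb-high cells, against 0, 53.8, 3.92 and 64.6 CPM in Fshb-low cells (pooled ratio 10.8). Inhbb was 126, 131, 180.4 and 154 CPM in Fshb-high cells, against 0, 23.1, 3.92 and 40 CPM in Fshb-low cells (pooled ratio 7.15). For these genes no Fshb-low value reached any Fshb-high value. Lhb, Gnrhr and Cga, which encode the other gonadotropin subunits and the GnRH receptor, were also higher in Fshb-high cells, with ratios of 7.24, 2.87 and 5.64.

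The receptors Acvr2b, Acvr1b and Acvr2a and the subunit Inha did not follow Fshb in this way. Acvr2b was 27.5 CPM in Fshb-high and 32.2 CPM in Fshb-low cells, with intervals of 19.1 to 38.2 and 23.1 to 43.6. Acvr1b was 14.1 and 11.0 CPM and Inha 19.6 and 21.2 CPM in Fshb-high and Fshb-low cells, each with overlapping intervals. Acvr2a was lower in Fshb-high cells in all 4 sets, at 16.5 CPM against 25.9 CPM, with overlapping intervals. A share of 21.6% of all tested genes was lower in every set. Foxl2 was 165 and 175 CPM and Nr5a1, the factor that marks the gonadotroph lineage, 111 and 94.9 CPM in Fshb-high and Fshb-low cells.

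**Figure D3:**
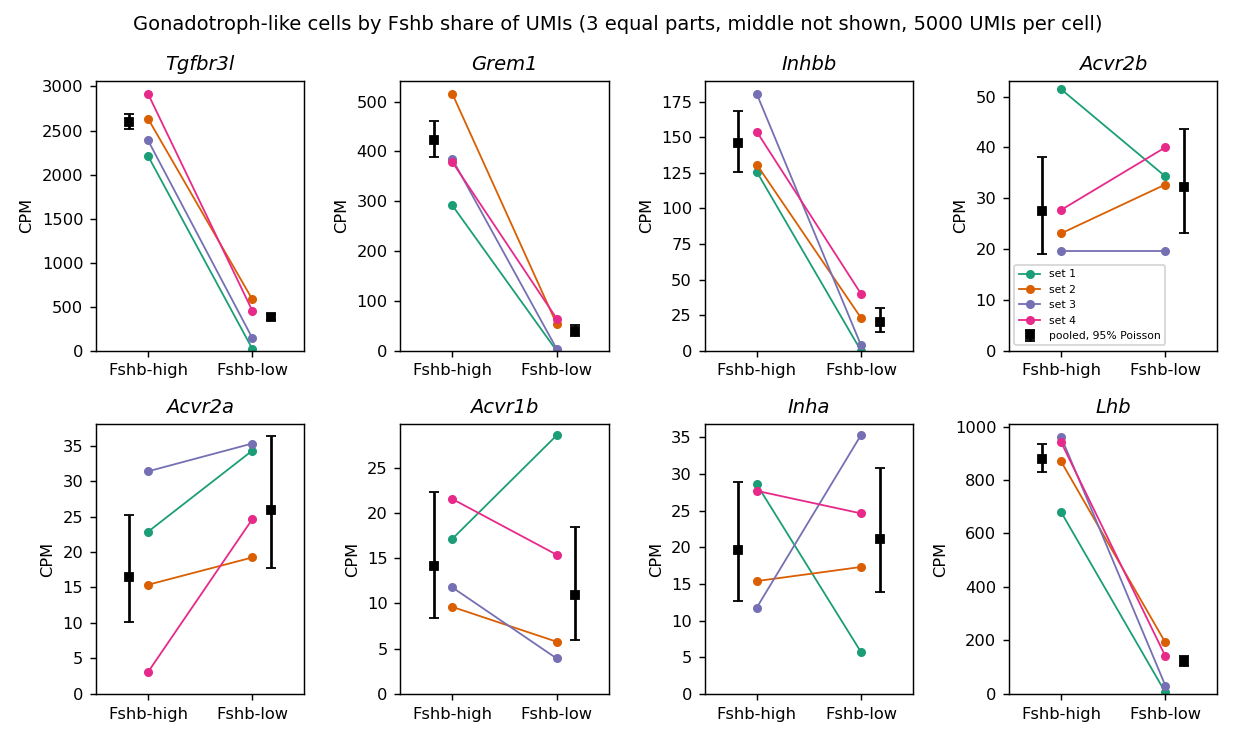
Levels (CPM, axes from 0) in gonadotroph-like cells of the top (left) and bottom (right) of 3 equal parts by Fshb share of UMIs, 255 cells each, thinned to 5000 UMIs per cell; coloured points are sets 1 to 4 and black squares the pooled value with its 95% Poisson interval. Tgfbr3l, Grem1, Inhbb and Lhb are higher in Fshb-high cells in all 4 sets, while the pooled intervals of Acvr2b, Acvr2a, Acvr1b and Inha overlap.

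Some gonadotroph-like cells had little of the hormone transcripts. Of the 931 gonadotroph-like cells, 173 (18.6%) had less than 1% Cga among their UMIs, and their share ran from 12.9% in set 2 to 29.3% in set 1. These cells held 25645 CPM of Pomc and 150.2 CPM of Sox2, markers of other classes, against 902 and 6.48 CPM in the 758 cells with more Cga. They held 97.0 CPM of Tgfbr3l, 0.729 CPM of Grem1 and 16.0 CPM of Inhbb, against 2238, 356 and 120.2 CPM in the cells with more Cga. Acvr2a was 37.9 CPM (28.3 to 49.7) in the low-Cga cells and 15.4 CPM (13.02 to 17.98) in the others. Foxl2 and Nr5a1 were at 147 and 79.5 CPM in the low-Cga cells, against 172 and 108 CPM.

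Within the cells with at least 1% Cga the same 3 genes were higher in Fshb-high cells in all 4 sets, with smaller ratios. There 205 Fshb-high cells and 205 Fshb-low cells averaged 14153 and 3246 CPM of Fshb. Tgfbr3l was 2652 CPM in Fshb-high cells against 1146 CPM in Fshb-low cells (ratio 2.31), Grem1 429 against 145 CPM (2.95) and Inhbb 166 against 53.7 CPM (3.09). The background share was 5.63%. The ratios of Cga, Lhb and Foxl2 were 2.14, 2.09 and 0.969. No gene of the 10 was lower in every set in these cells (14.2% of genes were), and Acvr2a was 9.76 CPM against 11.7 CPM.

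The wider family was read from lists of ligands, antagonists, receptors, Smad proteins and target genes. Among all tested genes, 38% led in the same class in every set, 4.09% in gonadotroph-like and 4.55% in stem or folliculostellate-like cells. Of 21 ligand genes 14 had at least 20 UMIs in their highest class and 9 led there in every set, 4 of them in stem or folliculostellate-like cells and 0 in gonadotroph-like cells. Bmp6 and Tgfb2 joined Inhba and Inhbb in that class, at 79.6 and 80.5 CPM. Gdf15, a stress-induced ligand, led in the macrophage or microglia-like class (333 CPM, and 13.3 CPM in the next class). Bmp4 led in fibroblast-like cells (136 against 24.1 CPM), and Bmp3 in thyrotroph-like cells (51.5 against 12.7 CPM).

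Among 18 binding proteins and antagonists 12 passed the minimum and 8 led in every set. Of these, 4 led in fibroblast-like cells (4.05% of all tested genes) and 2 in thyrotroph-like cells (2.76%). Grem1 was the 1 gene of that list that led in gonadotroph-like cells. Fstl1, a follistatin-like secreted protein, led in fibroblast-like cells at 274 CPM, and the stem or folliculostellate-like class followed at 177 CPM. Twsg1, a BMP-binding protein, led there at 101 against 59.9 CPM, and Fstl5 led in thyrotroph-like cells at 20.2 against 6.14 CPM.

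**Figure D4:**
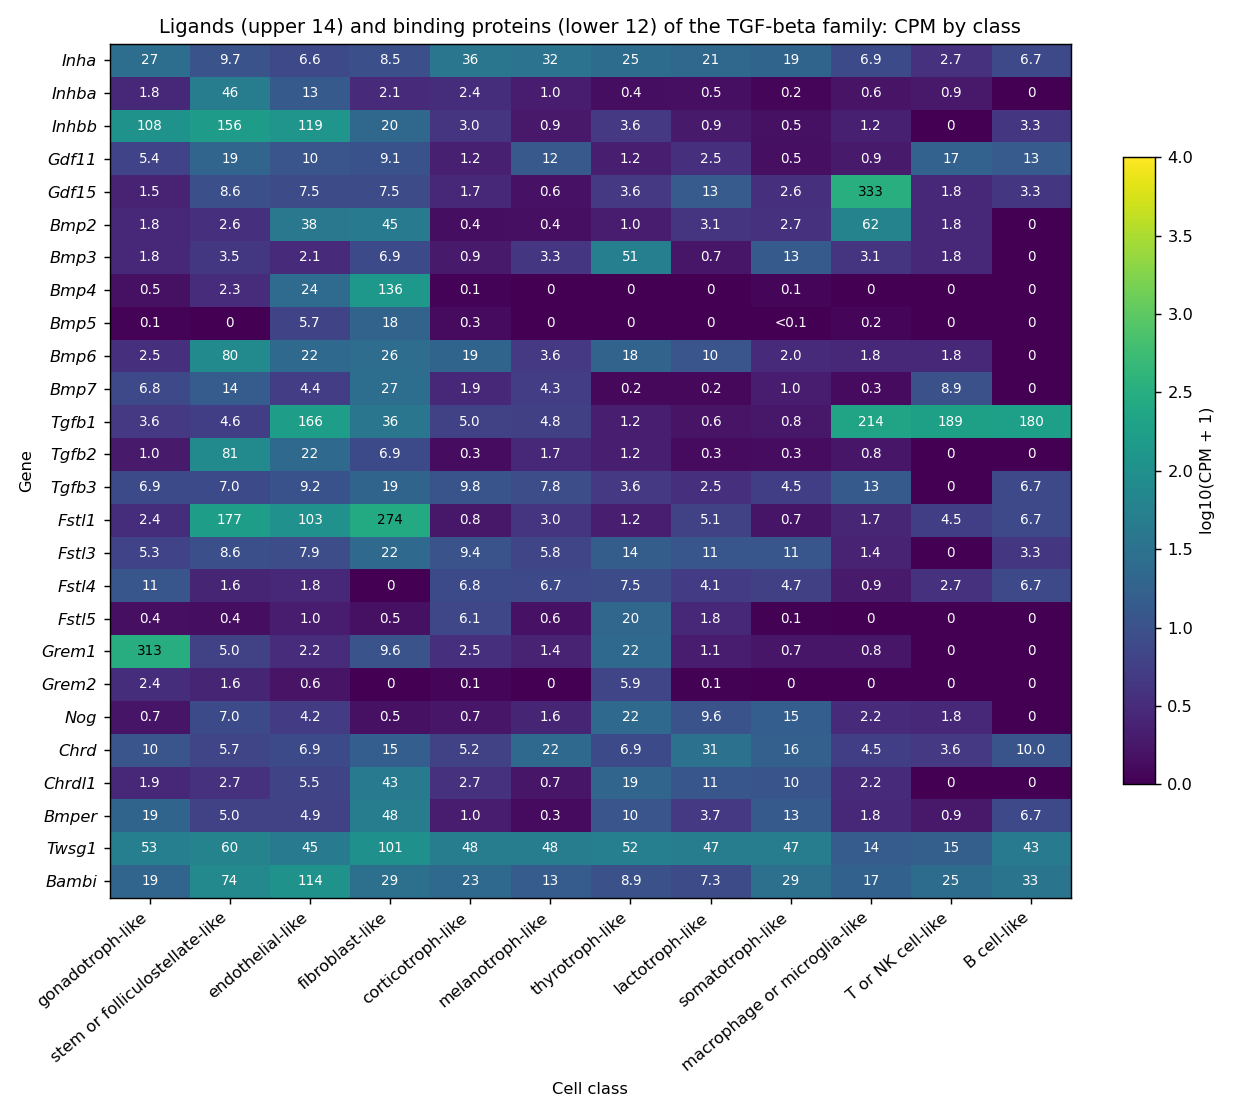
Level of the 14 ligand genes (upper rows) and 12 binding-protein and antagonist genes (lower rows) that passed the UMI minimum, as CPM by cell class with the 4 sets pooled; colour is log10(CPM + 1). Grem1 at 313 CPM is the highest value of the gonadotroph-like column, and Inhbb at 108 CPM the highest of its ligands.

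Of 16 receptor and co-receptor genes 14 passed and 10 led in every set. Tgfbr3l and Acvr2b led in gonadotroph-like cells, and 3 led in endothelial-like cells (4.01% of genes), among them Eng, the endothelial co-receptor endoglin (454 against 93.4 CPM). Tgfbr1, the type I receptor of TGF-beta, led in macrophage or microglia-like cells (375 CPM, and 47.8 CPM in the next class). Tgfbr3, the betaglycan gene and the general inhibin co-receptor, was 138 CPM in gonadotroph-like cells and 159 CPM in fibroblast-like cells.

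Of 15 Smad genes and regulators 13 passed and 6 led in every set, none in gonadotroph-like cells (4.09% of genes). The inhibitory Smad6 led in corticotroph-like cells (31.6 against 11.1 CPM), the inhibitory Smad7 in the T or NK cell-like class (407 against 189 CPM), and the repressor Skil in the macrophage or microglia-like class (458, and 300.2 CPM in the next class). Of 10 target genes of activin, TGF-beta and BMP 9 passed and 6 led in every set, 3 of them in macrophage or microglia-like cells (4.28% of genes). Pmepa1 was highest there (605 CPM, and 192 CPM in the next class), and Id1, a BMP target, was highest at 507 CPM in the stem or folliculostellate-like class (210 CPM in the next). None of these 9 target genes led in gonadotroph-like cells. With 4.09% of all tested genes leading there, a list this short cannot show a lack. Of 4 convertases that cut such precursors 3 passed and 2 led in every set, with Pcsk6 in somatotroph-like cells at 83.5 CPM. In the list of 14 gonadotroph loop genes all 14 passed, 10 led in every set, and 6 of these led in gonadotroph-like cells. Of these 6, Lhb (723 CPM), Gnrhr (895 CPM), Cga and Nr5a1 were naming markers of that class, so their lead is not a result.

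For each of the 10 genes with at least 100 UMIs in the classes, the genes with the most similar pattern were found by Pearson correlation of log2(CPM + 1) over the 12 classes. The classes share libraries and differ in depth and number of cells, so these values describe likeness and no p-value is given. Tgfbr3l was most like Gnrhr (0.982), which served in naming, Fshb (0.977) and Agt (0.959). Grem1 was most like Aif1l (0.976), Tmeff1 and Sct. Inhba was most like Met (0.985), Mia and Tent5b, and Inhbb most like Ccbe1 (0.955), Gprc5c and Pcdh7. Inha was most like Gm19409 (0.984), Celf3 and Unc80. Bmpr1b was most like Slc47a1 (0.938), Tnfsf13os and Lypd2. Acvr2a was most like Alkbh5 (0.926), Vezf1 and Six2, and Acvr2b most like Gm6222 (0.969), Lrsam1 and Zfp579. The nearest genes to Acvr1b were Zfp583 (0.949), Arfgef2 and Dhx57, all highest in B cell-like cells, the class with the fewest UMIs among the 12.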

How the data were processed

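The authors deposited 1 matrix of UMI counts per gene and barcode for all 4 libraries, written by Cell Ranger 8.0.1 per the file headers. Per the submitters' processing notes Seurat was also used, in a version and role not stated. No source used here gives the genome build or annotation. The 10 genes and all lists were chosen with earlier results of these data known. Barcodes with at least 500 UMIs, 250 genes and at most 25% mitochondrial UMIs were kept (567 of 40406 removed), and 3632 doublets (9.12%, from 6.84% to 10.9% per set) were removed with Scrublet in scanpy 1.11.5 (expected rate 8%). Clusters came from 2000 variable genes, without the 10 genes, Fshb and list genes that are no naming markers, 30 components, 15 neighbours and Leiden resolution 1.0. They were named from fixed markers (at least 3 with a log2 fold of 0.5 in 25% of cells, thresholds set after seeing the data). Of the cells, 3381 stayed unnamed. These are clusters rebuilt here, not the authors' annotation. Counts were summed per class and set. The floor for a gene without counts is 3 counts. The rule for leading classes was tested on simulated data. From each list up to 3 genes outside the 10 were named, those with at least 100 UMIs, the lead in every set and the highest ratio over the next class, with Fshb, Lhb, Cga and Gnrhr; Bmp6, Tgfb2, Tgfbr3, Foxl2, Nr5a1, Pomc, Sox2 and Rgs5 were named after their values were seen. For each of the 10 with at least 100 UMIs the 3 most similar genes were named. Lhb has 2 identifiers, of which the one with more UMIs was used, so its level is uncertain. The exons of Fst and Acvr2a overlap exons of Gm47040 and Orc4 on the other strand in GENCODE vM21. Alternatives kept doublets, used a stricter filter (1000 UMIs, 500 genes, 10% mitochondrial), resolution 0.5, classes by marker score, totals without 7 hormone genes, counts thinned to the smallest class sum of each set, or left out each set. A gene that the naming rule selected is not reported here.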

Additional observations from a re-analysis of the deposited data

Results flagged for a closer look

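Transcripts of 7 of the 10 genes had count intervals wholly above the limit of 3 counts in clusters without a class name, which no comparison used. The larger of these clusters comprised 2912 cells (median 1488 UMIs, median mitochondrial share 5.60%); its 10 leading genes were mitochondrial. Inha stood at 47.4 CPM there, above the 36.4 CPM of corticotroph-like cells. The same cluster held Acvr2a at 23.4 CPM, Acvr2b at 16.5 CPM, Tgfbr3l at 13.0 CPM, Acvr1b at 11.1 CPM, Grem1 at 2.26 CPM and Inhbb at 1.56 CPM. A cluster of 124 cells with macrophage and MHC class II genes held Acvr2a and Acvr2b at 9.36 CPM each, from 8 UMIs each.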

How the results depend on the processing

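No paired analysis was possible because the barcodes are tied to no library, and the edgeR, DESeq2, filter and left-out-library fits of a diet contrast were not run for the same reason. The 7 genes with one leading class in every set were 3 with thinned class sums, 6 or 7 under the other processing alternatives and 7 or 8 when a set was left out. Tgfbr3l, Grem1 and Acvr2b led in gonadotroph-like cells in every set under each alternative but 1: when class sums were thinned to the smallest one, 2 genes were left. Leaving out a set gave 3 each time. Inhbb led in stem or folliculostellate-like cells in every set in the main classes, but not with the stricter filter, the marker score, thinned counts or gonadotroph-like cells of at least 1% Cga, an alternative added after seeing the data. Bmpr1b lost it with thinned counts, and Inha lost its every-set lead with doublets kept, without hormone genes in the totals and with thinned counts. Levels in the leading class stayed within 1.5 times for 7 to 10 genes, and for 9 or 10 when a set was left out. Those that moved further were Fst, Bmpr1b, Acvr1b and Acvr2b. Of 124 single-gene levels recomputed, 45 fell outside the counting interval, so the printed intervals are narrower than the changes with processing. Also added after seeing the data were the cells without a UMI of other classes' markers, given beside Inhbb above. Inhbb in endothelial-like cells was 78.2 CPM with doublets kept. Tgfbr3l, Grem1 and Inhbb were higher in Fshb-high cells in every set under all alternatives run. The lower Acvr2a in Fshb-high cells was not kept in every set with the median split, with doublets kept, without set 1 or set 2, or within cells of at least 1% Cga. The cause was not tested. Fst, Bmpr1b and B cell-like values rest on few UMIs.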
